A study of Mus musculus with 8 samples.

Results

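Described here are 10 genes, namely the FOS subunits *Fos*, *Fosb*, *Fosl1* and *Fosl2*, the JUN subunits *Jun*, *Junb* and *Jund*, and *Egr1*, *Atf3* and *Ier2*. They were chosen by name as immediate early genes, with earlier results of these data known. All 10 were found among the 54532 genes measured and passed the filter that left 15708 genes for testing. The cells, called MICFs, were cardiac fibroblasts taken from the infarcted hearts of adult C57BL/6 mice and infected with doxycycline-inducible lentiviruses for MGT (*Mef2c*, *Gata4* and *Tbx5*), *Myocd*, *Sall4* and eGFP. All 4 groups carried these factors (genotype in the labels, MGTMyoS overexpression) and received doxycycline, and there was no group without them. The *in vivo* samples at 1 week and 2 weeks were eGFP+ cells sorted after enzymatic digestion of infarcted hearts of immunosuppressed C57BL/6 mice into which the MICFs had been injected. The *in vitro* samples were eGFP+ cells sorted from the same infected MICFs kept in culture for 1 week or 2 weeks, in a medium that contained inhibitors of the TGF-β receptor and of JAK kinases. Each group had 2 libraries, and neither their animals or wells of origin nor the release of the cultured cells from the dish is described. P-values therefore measure the spread between these libraries, which may be technical, and heart digestion cannot be told apart from life in the heart. Nor can the drugs, since only the mice received tacrolimus, methylprednisolone and mycophenolate mofetil, and only the cultures the kinase and receptor inhibitors.

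Immediate early genes are switched on within minutes of a stimulus, before any new protein is made, and growth factors, stretch, injury and the enzymatic dissociation of tissue all raise them. FOS and JUN proteins pair through leucine zippers to form AP-1, which binds the TGANTCA motif, and JUN proteins can also pair with each other or with ATF proteins, whereas FOS proteins do not pair with themselves. EGR1 is a zinc finger protein that binds GC-rich sites and is raised by the same kinases through serum response factor. In fibroblasts AP-1 and EGR1 act on genes of the matrix, of proteases and of inflammation.

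The promoters of the 4 genes whose RefSeq window covers the measured gene start are printed, since these genes include *Jun* and *Fosb*, which differed most. A motif in them is a match of letters and does not show binding. The windows, from RefSeq on GRCm38.p6, run 5′ to 3′ on the gene's own strand from 250 bases before the transcription start to 50 bases after it, and capitals mark the motifs found. They lie at chr12:85473640-85473939 on the plus strand for *Fos*, and on the minus strand at chr7:19309996-19310295 for *Fosb*, chr4:95052173-95052472 for *Jun* and chr8:84978699-84978998 for *Junb*.
Fos: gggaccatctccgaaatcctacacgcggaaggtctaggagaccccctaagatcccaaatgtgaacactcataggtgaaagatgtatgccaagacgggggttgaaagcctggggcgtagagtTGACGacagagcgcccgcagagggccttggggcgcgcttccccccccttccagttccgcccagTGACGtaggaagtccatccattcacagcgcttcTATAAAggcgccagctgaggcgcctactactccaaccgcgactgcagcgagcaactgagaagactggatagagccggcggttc
Fosb: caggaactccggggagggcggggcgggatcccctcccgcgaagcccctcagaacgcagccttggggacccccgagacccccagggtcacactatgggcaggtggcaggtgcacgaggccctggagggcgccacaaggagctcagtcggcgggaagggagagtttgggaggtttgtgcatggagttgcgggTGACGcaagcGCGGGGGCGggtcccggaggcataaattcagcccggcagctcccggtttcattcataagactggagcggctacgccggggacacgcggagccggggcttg
Jun: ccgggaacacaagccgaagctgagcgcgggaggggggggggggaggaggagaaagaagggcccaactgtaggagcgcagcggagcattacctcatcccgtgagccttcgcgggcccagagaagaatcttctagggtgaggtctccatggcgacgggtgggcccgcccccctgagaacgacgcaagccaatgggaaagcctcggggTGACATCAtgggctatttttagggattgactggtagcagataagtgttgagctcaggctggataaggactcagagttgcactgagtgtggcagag
Junb: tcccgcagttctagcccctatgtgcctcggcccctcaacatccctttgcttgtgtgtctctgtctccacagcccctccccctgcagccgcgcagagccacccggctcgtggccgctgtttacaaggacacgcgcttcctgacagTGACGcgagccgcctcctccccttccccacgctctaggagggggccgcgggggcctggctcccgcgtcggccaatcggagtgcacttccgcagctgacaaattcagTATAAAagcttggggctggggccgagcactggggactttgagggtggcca

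The *Fos* window held TGACG, the core of the cAMP response element, at base -129 and base -66, and a TATAAA at base -33. In *Fosb*, TGACG lay at base -60 and the EGR motif GCGNGGGCG at base -50. The *Jun* window held TGACATCA, known as a JUN/ATF element, at base -45, and that of *Junb* held TGACG at base -106 and TATAAA at base 1. Bases are counted from the RefSeq start, which for *Junb* lies 30 bases upstream of the measured gene start. Of all 32851 promoter windows, 20.8% held TGACG, 3.62% TGACATCA and 5.55% GCGNGGGCG on either strand, and 8.32% held TATAAA on the gene's strand. TGANTCA, TGACGTCA (which contains TGACG) and the serum response element CArG box were searched on both strands, and none was found in these 4 windows. They were present in 7.81%, 1.79% and 1.63% of all windows. Sequence upstream of the windows was not searched, so the promoters are not shown to lack these motifs. Windows were matched for 7 of the 10 genes.

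*In vivo* samples held far more of most of these transcripts. The 10 genes took 0.983% to 1.49% of all counted fragments *in vivo* and 0.407% to 0.512% *in vitro*. At 1 week 7 of the 10 genes were higher *in vivo* and 0 were lower, where 7.79% of all genes tested were called higher and 5.07% lower. At 2 weeks the members' counts were 6 higher and 0 lower, beside 9.02% and 8.05% of all genes. A gene was called at a Benjamini-Hochberg adjusted p under 0.01 with an absolute log2 fold change over 1, from limma on log2(FPKM + 0.1). FPKM is the number of fragments scaled by gene length and library size. The 10 genes had a median log2 fold change of 1.51 and then 1.33 at the 2 time points, beside -0.006 and -0.003 over all genes tested. By unadjusted p under 0.05, 0 of the 10 were lower at 1 week and 1 was lower at 2 weeks, and limma voom on the recovered fragments called 0 lower at either week. The share of all genes at an unadjusted p was not computed, here or for the counts at that p below. In bulk RNA of this kind, more cells using a gene and more RNA of it per cell cannot be told apart.

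**Figure D1:**
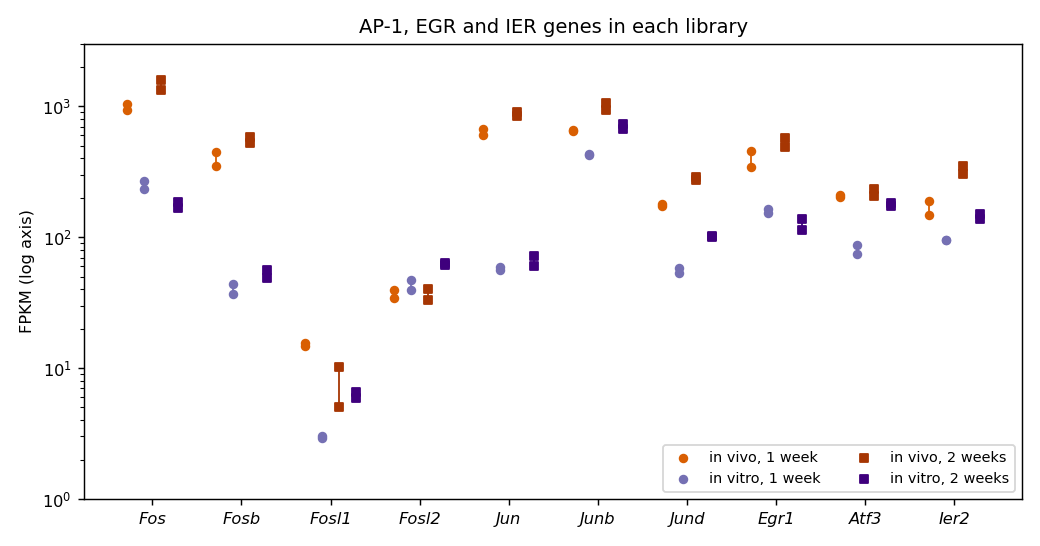
FPKM (log axis) of each of the 10 genes in each of the 8 libraries, with a line joining the 2 libraries of a group. *Jun* and *Fosb* lie furthest apart between *in vivo* (orange) and *in vitro* (purple) libraries, whereas *Fosl2* lies within 33.1 to 63.0 in all 8.

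Fragment counts were large for every member but *Fosl1*. Between 12304242 and 14546904 fragments were counted on genes per library, and the 10 genes held from 74 fragments (*Fosl1*) to 42282 (*Fos*) in a library. Replicates differed by more than counting error, the chi-square per gene being 4.50 to 9.93. A between-library scaling is built into the FPKM, whose implied library size was 0.863 to 0.915 of the counted fragments *in vivo* and 1.09 to 1.15 of them *in vitro*. Without that scaling the median of all genes moved to -0.34 and -0.33 at the 2 weeks on the log2 scale, and the calls over all genes to 906 higher and 1562 lower at 1 week, from 1224 and 796, and to 1029 and 2097 at 2 weeks, from 1417 and 1265.

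*Fos* (chromosome 12, 85473890 to 85477273, plus strand of GRCm38, the build of all positions given here) encodes the FOS subunit usually induced first and most strongly. Its FPKM was 940 and 1052 in the *in vivo* samples at 1 week and 269.6 and 234 in the *in vitro* samples. At 2 weeks it was 1593 and 1336 *in vivo* and 187 and 167 *in vitro*. All 4 *in vivo* libraries lay above all 4 *in vitro* libraries, and *Fos* ranked between 17 and 25 among the 54532 genes *in vivo* and between 92 and 243 *in vitro*. Its log2 fold change came to 1.98 (SE 0.122, adjusted p = 3.5e-05, limma) at 1 week and 3.04 (SE 0.122, adjusted p = 4.3e-06) at 2 weeks, or 3.96-fold and 8.25-fold.

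*Fosb* (chromosome 7, 19302696 to 19310051, minus strand), which is also known for a stable short form that lasts through repeated stimulation, had an FPKM of 347 and 449 *in vivo* against 44.1 and 36.7 *in vitro* at 1 week. The corresponding values at 2 weeks were 582 and 522 against 56 and 49.2. No *in vitro* library came near the *in vivo* values at either week. The difference was 9.80-fold at 1 week (log2 fold change 3.29, SE 0.148, adjusted p = 9.2e-06, limma) and 10.5-fold at 2 weeks (3.39, SE 0.148, adjusted p = 6.1e-06). Gene-level values do not separate the *Fosb* transcript forms.

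*Fosl1* (chromosome 19, 5447703 to 5455945, plus strand) and *Fosl2* (chromosome 5, 32135801 to 32157842, plus strand) encode FRA1 and FRA2, FOS proteins that lack the strong activation domains of FOS and FOSB and usually rise later. *Fosl1* was the least abundant of the 10, at 15.6 and 14.8 FPKM *in vivo* and 3.01 and 2.90 *in vitro* at 1 week. At 2 weeks it was 10.2 and 5.04 *in vivo* and 5.89 and 6.55 *in vitro*. The 1-week groups were apart, while at 2 weeks the *in vitro* libraries lay between the 2 *in vivo* libraries. At 1 week it was higher *in vivo* (log2 fold change 2.32, SE 0.282, adjusted p = 0.00074, limma), a call lost without the first *in vivo* library (adjusted p = 0.011, over a range of 1.9e-05 to 0.011 in 20 alternatives). At 2 weeks its log2 fold change of 0.20 (SE 0.282, adjusted p = 0.58, limma) turned to -0.30 without the first *in vivo* library and to -0.12 without the scaling between libraries.

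*Fosl2* had 39.6 and 34.3 FPKM *in vivo* and 39.3 and 46.8 *in vitro* at 1 week, and 40.5 and 33.1 *in vivo* and 63.0 and 61.8 *in vitro* at 2 weeks. The groups overlapped at 1 week, and at 2 weeks both *in vivo* libraries lay below both *in vitro* libraries. It was the one member with lower values *in vivo*, with a log2 fold change of -0.22 at 1 week (SE 0.127, adjusted p = 0.22, limma) and -0.77 at 2 weeks (SE 0.127, adjusted p = 0.0024), which did not reach the fold threshold. Without the scaling between libraries it reached -1.10 and was called lower at 2 weeks.

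*Jun* (chromosome 4, 95049034 to 95052222, minus strand), which encodes the JUN subunit with the strongest activating function, showed the widest difference of the 10 at either week. It had 605 and 667 FPKM *in vivo* and 56.5 and 59.3 *in vitro* at 1 week, and 908 and 845 *in vivo* and 72.0 and 60.6 *in vitro* at 2 weeks. The groups were far apart at both weeks, and *Jun* ranked between 40 and 48 among all genes *in vivo* but between 624 and 812 *in vitro*. It was 10.96-fold higher at 1 week (log2 fold change 3.45, SE 0.099, adjusted p = 1.4e-06, limma) and 13.25-fold at 2 weeks (3.73, SE 0.099, adjusted p = 9.6e-07). The antisense gene *Junos* overlaps it at 0.151 to 0.354 FPKM, and whether counting used strand is not given in the sources used here.

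*Junb* (chromosome 8, 84974484 to 84978718, minus strand), whose protein often restrains JUN and cell growth, was abundant everywhere. Its FPKM was 661 and 649 *in vivo* and 423 and 435 *in vitro* at 1 week, and 1063 and 941 *in vivo* and 676 and 732 *in vitro* at 2 weeks. The *in vivo* libraries were the higher ones within each week, but the *in vitro* libraries of 2 weeks lay above the *in vivo* libraries of 1 week. Its log2 fold change came to 0.61 (SE 0.086, adjusted p = 0.0015, limma) and 0.51 (SE 0.086, adjusted p = 0.0026), under the fold threshold at both weeks, and it was -0.02 at 2 weeks under quantile normalization. *Prdx2*, on the opposite strand and overlapping *Junb*, had 48.6 to 66.6 FPKM.

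*Jund* (chromosome 8, 70698949 to 70700616, plus strand), usually the steadily expressed JUN gene with little immediate early induction, differed more than *Junb*. Its libraries held 172 and 180.4 FPKM *in vivo* and 58.2 and 52.9 *in vitro* at 1 week, and 289.5 and 275 *in vivo* and 100.3 and 101.9 *in vitro* at 2 weeks. Replicates were close, and the 4 *in vivo* values exceeded the 4 *in vitro* values. It was 3.17-fold higher at 1 week (log2 fold change 1.67, SE 0.067, adjusted p = 5.9e-06, limma) and 2.79-fold at 2 weeks (1.48, SE 0.067, adjusted p = 7.4e-06).

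**Figure D2:**
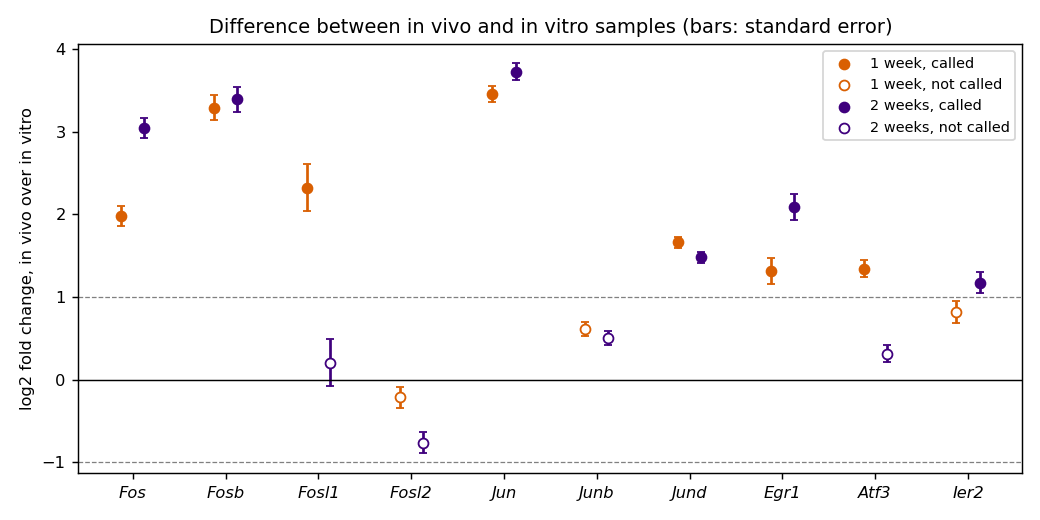
Log2 fold change of *in vivo* over *in vitro* samples at 1 week (orange) and 2 weeks (purple) for each of the 10 genes, with bars of 1 standard error, filled points for called genes and dashed lines at the fold threshold. *Jun* and *Fosb* lie between 3.29 and 3.73, *Fosl2* lies below 0, and *Fosl1* and *Atf3* pass the threshold at 1 week only. The 2-week value of *Junb* falls below 0 under quantile normalization, and those of *Fosl1* and *Atf3* do so without scaling.

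The make-up of both families differed between *in vivo* and *in vitro* samples. *Jun* made up 43.3% ± 1.78 (SD, n = 2) of the summed FPKM of the 3 JUN genes *in vivo* at 1 week and 10.7% ± 0.233 *in vitro*, and 40.6% ± 0.580 and 7.63% ± 1.22 at 2 weeks. *Junb* was about level with *Jun* *in vivo*, with a ratio of *Jun* to *Junb* of 0.855 to 1.03 in the 4 libraries. *In vitro* this ratio was 0.0827 to 0.136. *Junb* made up 79.1% of the JUN sum at 1 week and 80.8% at 2 weeks *in vitro*, and *Jund* took 10.3% to 13.1% in every group.

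Among the FOS genes, *Fos* led in every library, at 68.9% of their summed FPKM *in vivo* against 74.4% *in vitro* at 1 week, then 71.0% against 59.3% at 2 weeks. *Fosb* held 27.4% and 26.9% of the FOS sum *in vivo* at 1 and 2 weeks and 11.9% and 17.6% *in vitro*. *Fosl2* showed the reverse order, at 2.58% and 1.78% *in vivo* and 12.8% and 20.96% *in vitro*. The ratio of *Fos* to *Fosl2* was 23.7 to 40.4 across the *in vivo* libraries and 2.71 to 6.86 across the *in vitro* libraries. The FOS sum was 0.920 to 1.04 times the JUN sum *in vivo*, 0.586 to 0.661 times *in vitro* at 1 week and 0.318 to 0.368 times at 2 weeks. No test was run on these shares, which rest on values scaled by gene length and concern RNA, not protein.

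**Figure D3:**
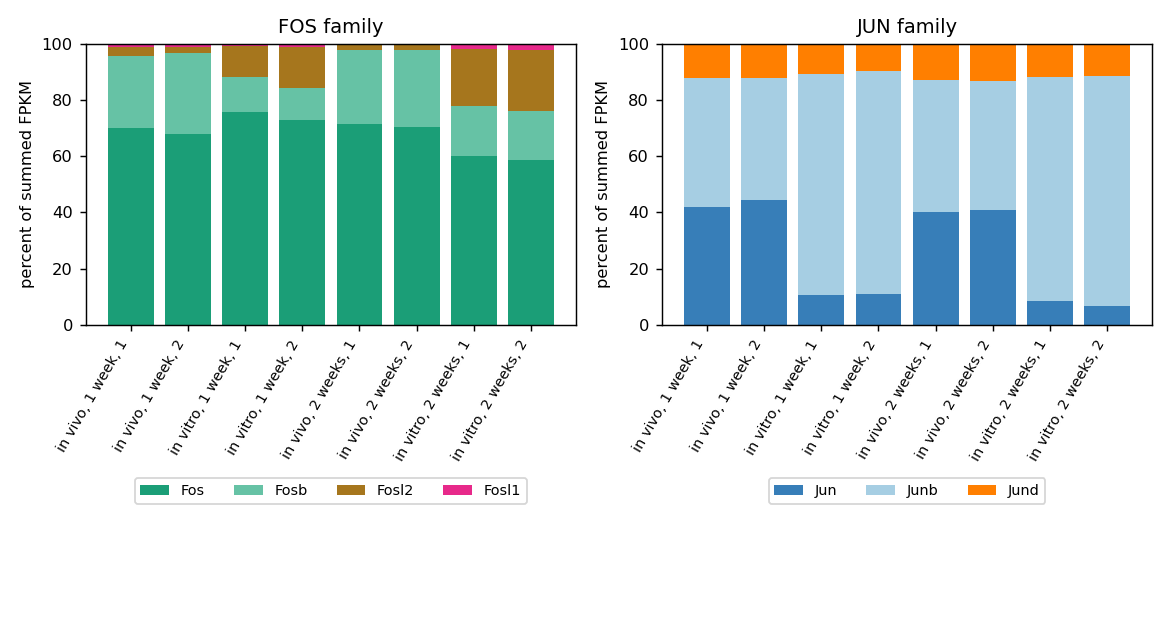
Percent of the summed FPKM of the FOS genes (left) and of the JUN genes (right) taken by each gene in each of the 8 libraries, as stacked bars that add up to 100. *Jun* fills 43.3% and 40.6% of the JUN bars *in vivo* at 1 and 2 weeks and 10.7% and 7.63% *in vitro*, while *Fosl2* takes its widest shares of the FOS bars *in vitro*.

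*Egr1*, on chromosome 18, encodes the zinc finger factor EGR1, a standard marker of recent kinase signalling. Its FPKM was 344 and 457 *in vivo* and 153 and 165.5 *in vitro* at 1 week, and 572 and 492 *in vivo* and 138 and 113 *in vitro* at 2 weeks. The 4 *in vivo* libraries were all higher than the 4 *in vitro* libraries. Its log2 fold change came to 1.32 (SE 0.159, adjusted p = 0.00072, limma) at 1 week and 2.09 (SE 0.159, adjusted p = 6.8e-05) at 2 weeks. The 1-week call was lost under quantile normalization (0.77) and without scaling between libraries (0.98).

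*Atf3* (chromosome 1, 191170296 to 191218039, minus strand) encodes a stress-induced bZIP protein that pairs with JUN proteins and represses transcription as a homodimer. It had 209 and 202 FPKM *in vivo* and 74.5 and 88 *in vitro* at 1 week. At 2 weeks it had 235 and 205 *in vivo* and 172 and 182 *in vitro*, so that the groups were apart at both weeks but much closer at the second. Its log2 fold change came to 1.34 (SE 0.101, adjusted p = 8.2e-05, limma) at 1 week and 0.31 (SE 0.101, adjusted p = 0.038) at 2 weeks, the latter -0.02 without scaling between libraries.

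*Ier2* (chromosome 8, 84661331 to 84662852, minus strand) encodes a small nuclear protein that lacks a DNA-binding domain. It had 147.5 and 191 FPKM *in vivo* and 94.6 and 95.5 *in vitro* at 1 week, and 348 and 303 *in vivo* and 137 and 152 *in vitro* at 2 weeks. The groups did not overlap within a week, although a 2-week *in vitro* library exceeded a 1-week *in vivo* library. Its log2 fold change of 0.82 at 1 week (SE 0.13, adjusted p = 0.0026, limma) fell short of the fold threshold, and that of 1.17 at 2 weeks (SE 0.13, adjusted p = 0.00038) passed it. Without the first *in vivo* library the 1-week value was 1.00 and passed, and the 2-week call was lost under quantile normalization and without scaling, at 0.84 each.

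In terms of separation, 9 of the 10 genes were higher in both *in vivo* libraries than in both *in vitro* libraries at 1 week, and 8 were at 2 weeks with *Fosl2* the other way. Such separation is common here, as 36.2% of all tested genes showed it upwards and 36.6% downwards at 1 week, and 36.8% and 37.4% did so at 2 weeks. Over both weeks *Fos*, *Fosb*, *Jun*, *Jund*, *Egr1* and *Atf3* were higher in all 4 *in vivo* than in all 4 *in vitro* libraries, beside 20.5% of all tested genes, and 0 of the 10 were lower throughout, beside 20% of them.

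The time points were compared next, to ask whether these levels settled between 1 and 2 weeks. *In vivo*, 0 of the 10 genes were called higher or lower at 2 weeks, where 1.23% of all genes were higher and 0.949% lower, by limma. At an unadjusted p under 0.05, 7 were higher and 1 was lower, and limma voom called 0 higher and 1 lower. Those unadjusted counts have no share of all genes beside them and are not read as a change of the members. *Ier2* came closest to the fold threshold among those with higher values, with a log2 fold change of 0.95 (adjusted p = 0.0059, limma). *Jund* followed with 0.68 (adjusted p = 0.0019) and *Junb* with 0.61 (adjusted p = 0.0064), all for 2 weeks over 1 week. *Fosl1* had a value of -1.07 (adjusted p = 0.046), and *Fosl2* and *Atf3* lay near 0.

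*In vitro*, *Atf3* was higher at 2 weeks than at 1 week, by 1.13 on the log2 scale (SE 0.101, adjusted p = 0.00084, limma), and 0 genes were called lower. Of all genes, 2.76% were called higher and 1.05% lower. By unadjusted p under 0.05, 7 of the 10 were higher and 1 was lower, and limma voom called 1 higher and 0 lower. Again no share of all genes stands beside the unadjusted counts. *Jund* and *Junb* had log2 fold changes of 0.86 and 0.71 with time in culture (adjusted p = 0.00051 and 0.0023, limma), below the fold threshold, and *Fos* had -0.51 (adjusted p = 0.025). The *Atf3* call was lost under quantile normalization and without the second *in vitro* library of 2 weeks.

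The change of the *in vivo* difference from 1 week to 2 weeks was tested as an interaction. It was called for *Atf3* alone among the 10, at -1.03 on the log2 scale (SE 0.143, adjusted p = 0.0088, limma), where 1.15% of all genes were called lower and 0.573% higher. The difference narrowed while the *in vivo* FPKM of *Atf3* stayed between 202 and 235 and its *in vitro* FPKM went from 74.5 and 88 to 172 and 182. This call was lost when any 1 of the 8 libraries was left out, with an adjusted p between 0.017 and 0.05, and with the replicate number as a block (adjusted p = 0.023). *Fos* had a change of 1.06 (adjusted p = 0.014) and *Fosl1* of -2.12 (adjusted p = 0.023), which did not pass. No gene was called higher, against 2 at an unadjusted p under 0.05, for which no share of all genes was computed, and 1 by limma voom.

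Other immediate early genes did not all follow. Of 44 tested genes of this kind outside the 10, 7 rose *in vivo* and 1 fell at 1 week, whereas 6 rose and 9 fell at 2 weeks. Among all genes, 7.79% rose and 5.07% fell at 1 week, and 9.02% rose and 8.05% fell at 2 weeks. For the 44 genes the differences had these medians. The median was 0.56 at 1 week and -0.05 at 2 weeks on the log2 scale. Without scaling between libraries 4 fell at 1 week and 3 rose at 2 weeks, the 2-week libraries alone gave 5 that fell, and leaving out the first *in vivo* or the second *in vitro* library of 1 week gave 2 that fell then. *Ctgf*, a secreted matrix protein and a target of YAP as well as of AP-1, rose by 3.17 and 2.60 on the log2 scale (adjusted p = 4.6e-07 and 8.4e-07, limma). *Dusp1*, a phosphatase that switches off JNK and p38 kinases, rose by 1.98 and 2.50 (adjusted p = 2.6e-05 and 7.4e-06). *Nfkbia*, an inhibitor of NF-κB, rose by 2.06 at 1 week (adjusted p = 5.2e-05) and had a value of 0.74 at 2 weeks.

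The nuclear receptor genes of the NR4A family and the remaining EGR genes went differently, in values picked out after they had been seen, apart from *Nr4a3*. *Nr4a3* had 21.4 and 18.5 FPKM *in vivo* and 28.5 and 35.3 *in vitro* at 1 week, and 21.4 and 17.9 *in vivo* and 106.7 and 124 *in vitro* at 2 weeks. It was lower *in vivo* at 2 weeks by a log2 fold change of -2.55 (adjusted p = 1.8e-05, limma). *Nr4a2* was lower at 2 weeks too, at -1.33 (adjusted p = 0.00014), whereas *Nr4a1*, at -0.94, did not reach the fold threshold. *Egr3* had 21.8 and 17.8 FPKM *in vivo* and 78.9 and 78.2 *in vitro* at 2 weeks, a log2 fold change of -1.99 (adjusted p = 9.4e-05), opposite in sign to that of *Egr1*. *Egr4*, below 4 FPKM in all libraries, had -1.85 (adjusted p = 0.00076), and *Egr2* had -0.35 (adjusted p = 0.05). At 1 week none of the 3 EGR genes was called, with log2 fold changes of -0.12 to 0.49.

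**Figure D4:**
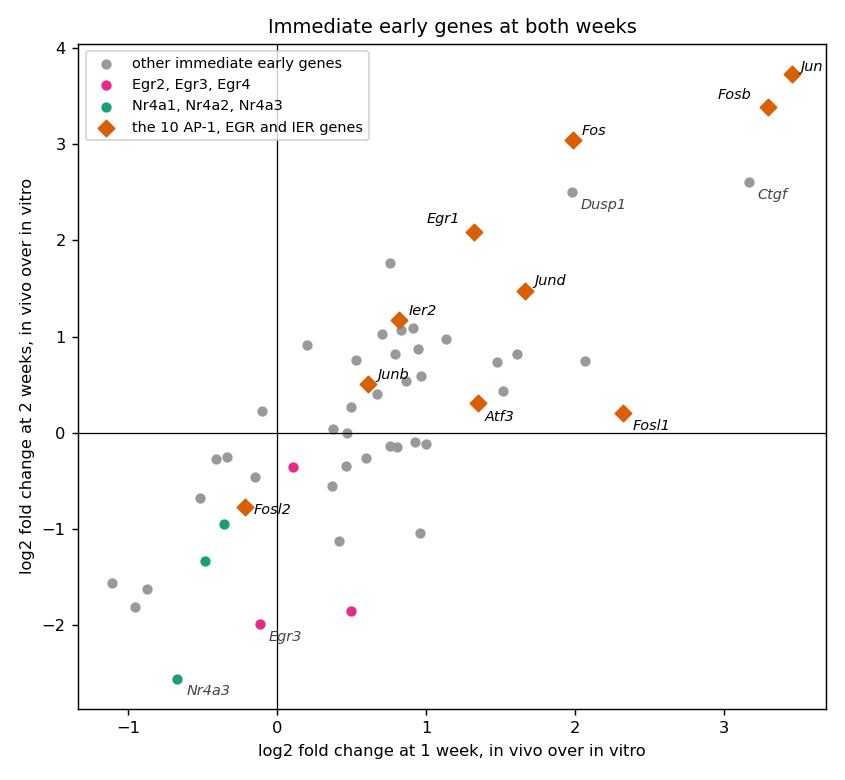
Log2 fold change of *in vivo* over *in vitro* samples at 1 week (x axis) and at 2 weeks (y axis) for the 10 genes (diamonds) and 44 other immediate early genes (circles), 1 point per gene. *Jun*, *Fosb* and *Fos* lie at the upper right, and *Egr3* and *Nr4a3*, whose families were coloured after their values were seen, lie lowest at -1.99 and -2.55 on the y axis. *Junb* drops below 0 at 2 weeks under quantile normalization, as *Fosl1* and *Atf3* do without scaling.

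Partners and regulators of AP-1 were then examined. Of 14 other bZIP genes, 1 was higher and 1 lower at either week, with 2 higher at 1 week without the second *in vitro* library of that week and 2 lower at 2 weeks without the first of that week. Over all genes tested, 7.79% were higher and 5.07% lower at 1 week, and 9.02% and 8.05% at 2 weeks. The counts of this list and the next lay near or below those shares. *Maff* was counted here and among the other immediate early genes. *Creb5* was higher *in vivo* at 1.88 and 1.83 on the log2 scale but had at most 1.33 FPKM and lost both calls with a pseudocount of 1, and *Maf*, a large bZIP factor prominent in macrophages, was lower at -1.28 and -2.03. Of 30 genes for the kinases and serum response factors upstream, 1 was higher at 1 week and 3 at 2 weeks, and 0 were lower by limma or limma voom, against 10 and 11 lower by unadjusted p under 0.05. *Elk3*, a ternary complex factor, rose by 1.22 and 1.16 (adjusted p = 2.5e-05 and 2.4e-05), and *Mapk7*, which encodes ERK5, had 0.76 and 1.15. *Mapk11*, which encodes p38β, had 0.44 and 1.10. The medians of this list were -0.02 and -0.08. Without scaling between libraries 0 of the 30 were higher at either week and 1 was lower at 2 weeks, with *Elk3* at 0.88 and 0.83, *Mapk7* at 0.82 and *Mapk11* at 0.78. Leaving out the first *in vitro* library of 2 weeks also gave 1 lower, and the *Mapk11* call was lost without either *in vitro* library or the second *in vivo* library of 2 weeks (adjusted p = 0.012 to 0.018, limma).

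Feedback inhibitors of these pathways were mixed. Of 18 tested, 2 rose and 1 fell at 1 week, whereas 1 rose and 3 fell at 2 weeks, numbers to be read beside the shares called among all genes (7.79% and 5.07%, then 9.02% and 8.05%). *Dusp1*, *Dusp5*, *Zfp36*, *Zfp36l1* and *Zfp36l2* were also counted among the other immediate early genes, so the lists are not separate. The counts of the 18 moved to 1 that rose at 1 week without the first *in vivo* or the second *in vitro* library, to 2 that fell without the former, and to 1 that fell at 2 weeks without the first *in vitro* library. Besides *Dusp1*, the JNK and p38 phosphatase gene *Dusp10* was higher at 1 week at 1.04 on the log2 scale (adjusted p = 6e-04, limma). It fell short of the fold threshold with a pseudocount of 1 (0.89), without scaling (0.70), and without the first *in vivo* (0.97) or the second *in vitro* library of 1 week (0.91). The ERK phosphatase genes *Dusp5* and *Dusp4* were lower *in vivo*, *Dusp5* at -1.11 and -1.56 and *Dusp4* at -0.98 (not called) and -1.23. The 2-week call of *Dusp4* was lost without the first *in vitro* library (adjusted p = 0.012, limma), and its 1-week value passed without the first *in vivo* library (-1.22).

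Of 33 genes known as AP-1 or EGR1 targets in other settings, 9 rose *in vivo* and 3 fell at 1 week, whereas 6 rose and 8 fell at 2 weeks. The shares among all genes were 7.79% and 5.07%, then 9.02% and 8.05%. The median log2 fold change of the 33 genes went from 0.56 to -0.26. Without scaling 8 fell at 1 week and 3 rose at 2 weeks. *Tnc*, the matrix protein tenascin C, rose by 3.14 and 2.60, and *Ereg*, an EGF receptor ligand, by 1.69 and 1.11. The 2-week *Ereg* call was lost in 7 of 20 alternatives, among them no scaling (0.79) and leaving out the first *in vivo* (0.85), the first *in vitro* (0.96) or the second *in vitro* library (1.27, adjusted p = 0.011, limma) of that week. *Mmp13*, a collagenase gene with a well-known AP-1 site, was lower *in vivo* at -1.88 and -3.52. Its mean FPKM was low, at 1.05 and 0.57 *in vivo* at 1 and 2 weeks and 4.19 and 7.43 (SD 2.48 at 2 weeks) *in vitro*. Its 1-week call was lost in 7 of 20 alternatives, among them the replicate block (adjusted p = 0.011, limma) and leaving out any 1 of the 4 libraries of that week (adjusted p = 0.018 to 0.046). The chemokine genes *Ccl2* and *Ccl7* stood at 82.5 and 56.9 FPKM, and at 96.9 and 61.8 FPKM, *in vivo* at 2 weeks, against 663 and 853.5, and 745 and 955, *in vitro*. Their log2 fold changes at 2 weeks were -3.46 and -3.44 (adjusted p = 1.5e-05 and 2.4e-05, limma).

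Some heat shock genes, which tissue dissociation is known to raise, were also higher *in vivo*. Of 14 tested, with median log2 fold changes of 0.83 and 0.49, 5 were higher *in vivo* at 1 week and 4 at 2 weeks, with 0 lower by limma, by limma voom or by unadjusted p under 0.05. Under quantile normalization or without scaling 3 were higher at 1 week. Among all genes, 7.79% were higher at 1 week and 9.02% at 2 weeks. *Hspa1a*, an inducible HSP70 gene, had 237 and 149.7 FPKM *in vivo* and 3.79 and 2.87 *in vitro* at 1 week, and 194 and 227 *in vivo* and 8.11 and 8.85 *in vitro* at 2 weeks. Its difference of 5.79 and 4.61 on the log2 scale was wider than that of any of the 10 genes, and that of *Hspa1b*, a near-identical copy whose reads cannot be split with certainty, was 4.61 and 3.74. *Hsph1*, a co-chaperone gene, rose by 1.57 and 1.65. The summed FPKM of the list was 2610 to 2938 in the *in vivo* libraries and 1333 to 1566 in the *in vitro* libraries. The part of dissociation in the differences of *Fos*, *Jun* and the others was not tested. Of 12 housekeeping genes 0 were called by limma or limma voom, which does not show them to be steady. Their log2 fold changes had a median of -0.05 at 1 week, from -0.64 to 2.64. At 2 weeks the median was -0.41, from -0.98 to 0.44. Leaving out 1 library of 2 weeks gave at most 1 higher and 1 lower, and no scaling gave 3 lower at 2 weeks. An unadjusted p under 0.05 was met by 3 upwards and 5 downwards at the first time point and by 1 and 8 at the second.

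Markers of cell types moved as well, and their part in the results was not tested. Their counts stand beside 7.79% of all genes higher and 5.07% lower at 1 week, and 9.02% and 8.05% at 2 weeks. Of 15 fibroblast markers, 9 were higher *in vivo* at 1 week and 10 at 2 weeks, with a summed FPKM of 12160 to 15840 *in vivo* and 2733 to 4293 *in vitro*. Macrophage and myeloid markers summed to 2150 to 3442 FPKM *in vivo* and 5302 to 6505 *in vitro*, with 3 of 19 up and 1 down at 1 week, then 2 up and 9 down at 2 weeks. The 9 became 5 without the second *in vivo* or the second *in vitro* library of 2 weeks, the 2 became 1 without the first of either, and the 1 down at 1 week became 4 without scaling and 2 without the first *in vitro* library. In this list *S100a9* and *Ly6c2* were at 0 in all 4 *in vitro* libraries and *Ccr2* in the 2 of 2 weeks. Most of the list went the other way, as 7 of the 19 had a positive log2 fold change at 1 week and 5 at 2 weeks. Endothelial markers, with 8 of 10 higher at 1 week and 4 at 2 weeks, summed to 93.3 to 108.8 FPKM *in vivo* and 26.7 to 70.7 *in vitro*. Cardiomyocyte markers ran the other way, with 8 of 11 lower *in vivo* and 1 higher at 1 week, then 9 lower and 2 higher (1 when any 1 of 6 libraries was left out) at 2 weeks, and sums of 16.9 to 49.4 FPKM *in vivo* and 168.6 to 1234 *in vitro*. Of 9 mesothelial markers, 8 were lower *in vivo* at either week, with sums of 18.5 to 37.8 and 259.7 to 587 FPKM. Mural markers were split, with 4 of 8 up and 2 down at 1 week, then 2 up and 4 down at 2 weeks (1 up without the first *in vivo* or the second *in vitro* library, and 2 down without either *in vivo* or the first *in vitro* library), and lymphocyte markers summed to at most 4.10 FPKM.

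The genes most like *Fos*, *Fosl1* and *Egr1* over the 8 libraries were named by Pearson's r of log2 values. They were ranked among 6909 candidate genes, each with a mean FPKM of 5 or more. Genes outside these candidates were not ranked, so a closer gene among them is not excluded. These r values are descriptions over 8 libraries that share 4 groups and a scaling. For *Fos* they were *Ptgfrn* (r = 0.999), *Ddost* (r = 0.998), *Acvrl1* (r = 0.997) and *Dsel* (r = 0.997). *Egr1* had *Sh3d19*, *Slc2a10*, *Nfic* and *Nfix*, with r of 0.994 to 0.996, and *Fosl1* had *Cxcl16*, *Hk2*, *Aoc3* and *Bbc3*, with r of 0.971 to 0.976. Between members, r was 0.997 for *Jun* with *Fosb*, 0.992 for *Fos* with *Egr1* and -0.81 for *Fos* with *Fosl2*.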

How the data were processed

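RNA sequencing of mRNA from eGFP+ MICFs gave 8 libraries in 4 groups of 2. The authors deposited FPKM for 54532 genes, made by their sequencing provider. The submitters' processing notes name CASAVA, HISAT2 2.0.5 and mm10. The counting tool is not given in the sources used here. Start and end matched GENCODE release M21 of GRCm38 for 98.33% of 54495 shared gene identifiers and for 9 of the 10 members. FPKM multiplied by gene length gave whole fragments (within 0.01 of a whole number) for all values above 0.

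Genes reaching 0.5 FPKM in 2 or more libraries (15708) were compared on log2(FPKM + 0.1), a scale that understates the change of low genes. One model over the 4 groups was fitted with limma 3.58.1 in R 4.3.3, with a variance trend and Benjamini-Hochberg adjustment over all 15708 genes. Calls needed an adjusted p under 0.01 with a log2 fold change above 1 or below -1. The study's own test, DESeq2, was not run, and limma voom on the recovered fragments was the count-based alternative. On data simulated with an assumed spread, the procedure called 13 of 37 changes of 3-fold at 1 week and 24 of 37 at 2 weeks. Of 6-fold changes it called 29 of 29 and 37 of 38. For the interaction it called 10 of 74 at 3-fold and 55 of 67 at 6-fold. At either week far fewer genes were changed there than were called in the data. This makes the adjusted p stricter in the simulation, so these rates do not carry over to the data. A gene not called is still not shown to be unchanged. The members and gene lists were chosen with earlier results of these data known. Genes outside the 10 were named by rule, apart from those said to be picked after their values were seen: in each list, the 3 called genes with the largest change at each week, and the 4 genes most like *Fos*, *Fosl1* and *Egr1*. Replicate numbers were not treated as pairs, since same-numbered libraries deviated with a correlation of -0.020 at 1 week and -0.022 at 2 weeks.

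Alternatives were other pseudocounts, filters, scalings and thresholds, protein-coding genes only, limma voom, a replicate block and each library left out. Motifs were searched with Python 3.11.15 in RefSeq windows, TATAAA on the gene's strand only.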

Additional observations from a re-analysis of the deposited data

Results flagged for a closer look

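*Atf3* was picked out because the gap between its *in vivo* and *in vitro* levels was not the same at the 2 time points. It went from 1.34 at 1 week to 0.31 at 2 weeks on the log2 scale, a change of -1.03 (SE 0.143, adjusted p = 0.0088, limma with Benjamini-Hochberg adjustment). The groups did not overlap at either week. The adjusted p of this change ranged from 0.00028 to 0.05 over 19 alternatives, and in 12 of them it no longer passed.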

How the results depend on the processing

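Of 400 values of the 10 genes at either week over 20 alternatives, 384 kept both their direction and their side of the threshold. Another 7 passed it only under the alternative, 5 no longer passed and 4 reversed. Many alternatives could not change a direction, since they leave the log2 fold change as it is. These were the filters, protein-coding genes only, no variance trend, the replicate block and the other threshold. The libraries of that week alone, or leaving out a library of the other week, also leave it as it is. The reversed ones were *Junb* at 2 weeks under quantile normalization (-0.019), *Fosl1* at 2 weeks without scaling (-0.123) or without the first *in vivo* library (-0.296, against 0.703 without the second), and *Atf3* at 2 weeks without scaling (-0.019). The number of the 10 genes higher *in vivo* stayed at 6 to 9 at 1 week and 5 to 8 at 2 weeks. The number lower at 2 weeks was 1 without scaling and 1 at an adjusted p under 0.05 with no fold threshold. The cause was not tested.

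The comparisons of the weeks were less stable. For the interaction, the number of the 10 genes called lower (1) was 0 with a pseudocount of 0.01, with no filter, with no variance trend and with the replicate block, and 2 with protein-coding genes only, with limma voom and at an adjusted p under 0.05 with no fold threshold. Leaving out 1 library gave 0 to 1. The number called higher (0) was 1 with a filter of FPKM 1 in 4 libraries, quantile normalization, protein-coding genes only, limma voom and the adjusted p under 0.05. Over all genes, 605 were higher and 953 lower at that adjusted p. The value of *Fosb* reversed to -0.087 without the first *in vivo* and to -0.035 without the first *in vitro* library of 1 week, and was between -0.087 and 0.283 with 1 library left out. *In vivo*, between the weeks, 1 gene was called lower with limma voom, 5 were higher and 1 lower at an adjusted p under 0.05, and leaving out 1 library gave 0 to 1 lower. *Atf3* reversed there to -0.105 under quantile normalization and -0.005 without the first library of 2 weeks, with up to 0.193 when another was left out. *Fosl2* reversed to 0.093 without the first library of 1 week and 0.136 without the second of 2 weeks, and was at its lowest, -0.155, without the first of 2 weeks. *In vitro*, the number called higher was 0 under quantile normalization, 6 with 1 lower at an adjusted p under 0.05, and 0 to 2 with 1 library left out, and *Jun* came to 0.00 under quantile normalization. At that adjusted p, 2212 of all genes were higher and 1730 lower.

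Counts over all genes moved too. Leaving out 1 library took the lower calls at 1 week from 796 to between 466 and 831, the 90 higher and 181 lower interaction calls to between 1 and 37 and between 1 and 49, and the 193 and 149 calls between the weeks *in vivo* to between 10 and 133 and between 1 and 103. *In vitro* the 434 and 165 calls between the weeks fell to between 154 and 400 and between 44 and 156. With no fold threshold and an adjusted p under 0.05, the calls at 1 week were 3365 higher and 3240 lower, and at 2 weeks 3862 and 3963. The replicate block, whose numbers are not pairs here, took the interaction calls to 11 higher and 16 lower and changed no number of called members at either week. Voom gave 143 and 330 there, no filter 27 and 45, and protein-coding genes only 146 and 317.

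Shares counted by fragments, with no length scaling, differed from those by FPKM, so the order of subunits depends on gene length. In the order *in vivo* 1 week, *in vitro* 1 week, *in vivo* 2 weeks and *in vitro* 2 weeks, *Fos* held 45.0%, 46.7%, 47.4% and 30.6% of the FOS fragments. *Fosb* held 47.5%, 19.9%, 47.5% and 24.1%, *Fosl2* 6.95%, 33.0%, 4.90% and 44.5%, and *Fosl1* 0.501%, 0.398%, 0.175% and 0.783%. Among JUN fragments, *Jun* held 52.9%, 14.6%, 50.2% and 10.6%, and *Jund* 7.68%, 7.33%, 8.45% and 8.44%. *Junb* held 39.4%, 78.1% and 41.3% in the first 3 groups.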

Other observations

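Further immediate early families differed between their members, in genes picked after their values had been seen. Among the GADD45 genes, whose proteins respond to stress and growth arrest, *Gadd45b* was higher *in vivo* at 1 week (log2 fold change 1.48, adjusted p = 6.9e-05, limma) and had 0.74 at 2 weeks. *Gadd45a* had -0.96 at 1 week and was lower at 2 weeks (-1.81, adjusted p = 6.2e-05). Its mean FPKM was 14.5 and 13.2 *in vivo* at 1 and 2 weeks against 28.1 and 46.4 *in vitro*.

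The Krüppel-like factor genes *Klf2* and *Klf4*, which encode zinc finger proteins, had 0.75 and 0.83 at 1 week, below the fold threshold, and were higher *in vivo* at 2 weeks at 1.77 (adjusted p = 5.5e-06, limma) and 1.07 (adjusted p = 0.00011). *Klf6* was higher at 1 week at 1.13 (adjusted p = 0.00058) and had 0.98 at 2 weeks. Of the relatives of *Ier2*, *Ier5* was higher at 1 week at 1.61 (adjusted p = 8.2e-05) with 0.82 at 2 weeks, whereas *Ier3* had 0.80 and -0.14 and *Ier5l* had -0.10 and 0.23. None of these family differences was tested as such.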
